A study of Oryza sativa with 4 samples.

Results

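A set of 105 genes, of 37858 listed, had transcript levels in the leaves of HDS plants that were at least 3 times those in the leaves of CS plants in every pairing of libraries. The genes were chosen from the expected counts themselves. Counts were divided by the total of their library and expressed as CPM, the counts in a library scaled to 1000000. A gene entered the set when its expected counts were whole numbers in all 4 libraries, when both HDS libraries held at least 20 counts, and when the smaller HDS CPM was at least 3 times the larger CS CPM. Os12g0491800 was left out by the rule. The conditions on whole counts and on 20 counts were met by 15176 genes, called eligible genes below, and the set is 0.692% of them. Because the difference between HDS and CS plants selected these genes, their levels in the 2 treatments are a description and were not tested.

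HDS plants were grown from seeds that matured at 30 °C, and CS plants from seeds that matured at 25 °C, from flowering to harvest. All plants were of the rice cultivar Nipponbare, with no mutation or transgene named, and were raised under natural conditions. RNA came from fully developed leaves at 55 DAS (days after sowing), with 2 biological replicates per treatment, each replicate being 1 plant by the study's methods. Transcripts were estimated per gene with RSEM, which splits reads that match more than a single gene.

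A rice grain fills with starch and storage protein after fertilization, and its embryo develops in the same weeks, so that heat at this stage reaches both the grain and the next plant. In rice, as in other plants, many genes lie beside copies of themselves that arose by tandem duplication, and some unrelated genes of one biosynthetic pathway also lie side by side. A group of neighbouring genes can therefore share their regulation, and copies with near-identical sequence can share reads. The rule required whole counts, which leaves out genes whose estimates show divided reads, although a whole value does not by itself show that no read was divided.

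The genes are given by the identifiers of the Rice Annotation Project (RAP), whose first digits name the chromosome. The study's list of named genes and the gene table of the reference used here hold 0 of the 105 identifiers, so that no gene name, product or function is given for them. For the same reason, gene classes and marker genes of leaf, seed, anther or root could not be counted in these libraries. The places of the genes are given as rows of the table, which lists genes in the order of their identifiers. The order of RAP identifiers follows the order along the chromosome in the IRGSP-1.0 build, and positions in bases were not used here.

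Depth was similar in the 4 libraries. They held 17298384 and 16605260 expected counts in HDS replicates 1 and 2, and 15444235 and 17214538 in CS replicates 1 and 2. A count of 0 allows up to 3 counts, which is between 0.173 and 0.194 CPM. CS replicate 1 was the library least like the HDS libraries: across the 22184 genes with enough counts for edgeR's filterByExpr function, its log2 CPM correlated with HDS replicate 1 at r = 0.94, with HDS replicate 2 at 0.95 and with CS replicate 2 at 0.96. The HDS replicates correlated with each other at 0.98, and with CS replicate 2 at 0.96 (HDS replicate 1) and 0.97 (HDS replicate 2). Without CS replicate 1 in the rule, 180 genes met it, and without CS replicate 2, 354 genes. Both sets hold the 105 genes by construction, since leaving out a CS library can only lower the larger CS level. Values for these larger sets are given beside the results that could rest on a CS library.

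Most of the 105 genes were weakly expressed. In whole leaves, a higher level may reflect more cells of a type or more RNA per cell, and these cannot be told apart. Their mean level in HDS leaves was between 1.45 and 90.3 CPM with a median of 4.44 CPM, while the median of the eligible genes was 18.6 CPM. In CS leaves their mean level was between 0 and 17.7 CPM with a median of 0.485 CPM. At least 1 HDS library held fewer than 50 counts for 41 genes, and both held 100 or more for 36 genes. Summed over the set, the level was 1572 and 975 CPM in HDS replicates 1 and 2, and 173 and 144 CPM in CS replicates 1 and 2. The sum was unevenly shared, since the 5 genes with the highest mean made up 27.6% of the HDS sum and the first 10 made up 46.0%.

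**Figure D1:**
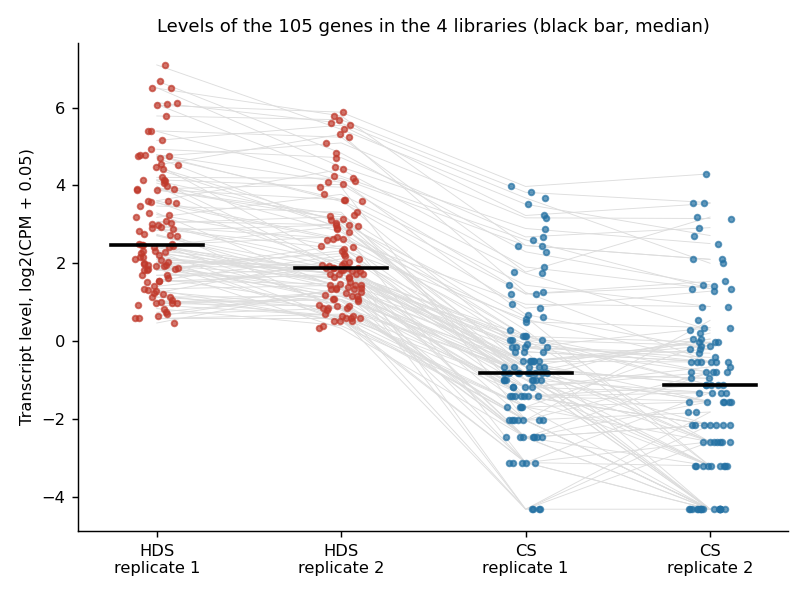
Transcript levels of the 105 genes as log2(CPM + 0.05) in the 4 libraries, with HDS replicates left of CS replicates. Each point is a gene, grey lines join the same gene and black bars are library medians, which are highest in HDS replicate 1, and the lowest row of points is genes with 0 counts, 4 in CS replicate 1 and 16 in CS replicate 2.

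The ratio of the smaller HDS level to the larger CS level had a median of 5.18. It was between 3 and 4 for 35 genes, between 4 and 6 for 25, between 6 and 10 for 23 and at least 10 for 22, the last including a gene with no CS count. The difference of mean log2 CPM (HDS minus CS, with a prior count of 2) had a median of 3.05 and was between 1.48 and 6.55. Over all eligible genes its median was 0.09. These sizes follow from the rule. Just inside the limit lay Os12g0570700, Os01g0940800 and Os08g0560000 with ratios of 3.002, 3.006 and 3.008, and just outside it lay Os07g0442900, Os11g0644800 and Os07g0129200 with ratios of 2.99, 2.95 and 2.90.

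By the study's criteria (an unadjusted P below 0.05 in edgeR's exactTest, with log2 fold changes of 0.37 or more), 105 of the 105 genes were higher in HDS plants, where 4.18% of the 29698 genes tested were. With adjustment by the Benjamini-Hochberg method in the quasi-likelihood test of edgeR, 26 of the 105 genes were higher, where 0.248% of the 22184 genes tested were, that is 55 genes. Both tests use the contrast that selected the genes, and nothing is read from either count.

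The highest level in HDS leaves was that of Os11g0592000 on chromosome 11. It held 2371 and 722 counts in HDS replicates 1 and 2, and 176 and 112 in CS replicates 1 and 2. Its level was thus 90.3 ± 66.2 CPM in HDS leaves and 8.95 ± 3.46 CPM in CS leaves (SD, n = 2 each). HDS replicate 1 alone accounted for most of the HDS mean, with 137 CPM against 43.5 CPM in HDS replicate 2.

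Os04g0581100 stood second, with 1566 and 916 counts in HDS leaves and 84 and 73 in CS leaves. Here both HDS libraries were far above the CS libraries, at 72.8 ± 25.0 CPM in HDS leaves and 4.84 ± 0.847 CPM in CS leaves. Os01g0327100 held 1785 and 472 counts in HDS leaves, against 75 and 46 in CS leaves. Os12g0570700 held 1580 and 368 in HDS leaves, against 114 and 97 in CS leaves. The pair shared the order of Os11g0592000, with HDS replicate 1 at 3.63 and 4.12 times HDS replicate 2 in CPM. As a result Os12g0570700 was the gene nearest the limit of the rule, although its pooled fold, the summed counts over the summed library totals in HDS against CS leaves, was 8.89.

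Other strongly expressed genes of the set were close between the HDS replicates. Os01g0940800 held 1156 and 980 counts in HDS leaves, against 242 and 338 in CS leaves. Os03g0327800 held 954 and 856 in HDS leaves, against 218 and 202 in CS leaves. For Os03g0327800 the HDS replicates agreed within counting error, and its level was 53.3 ± 2.55 CPM in HDS leaves and 12.9 ± 1.68 CPM in CS leaves (SD, n = 2 each). Os07g0687900 held 617 and 777 counts in HDS leaves, against 144 and 199 in CS leaves, with the higher level in HDS replicate 2. Os08g0560000 had the same order, with 465 and 566 counts in HDS leaves and 138 and 152 in CS leaves. These 4 genes had smaller ratios than the median of the set, between 3.01 and 3.65.

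In Os07g0683200 it was the CS libraries that differed most. It held 1211 and 806 counts in HDS leaves, against 197 and 68 in CS leaves, so that its level was 59.3 ± 15.2 CPM in HDS leaves and 8.35 ± 6.23 CPM in CS leaves.

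A second kind of gene was close to absent from CS leaves. In 18 genes exactly 1 CS library held 0 counts, and in 1 gene both did. Both CS libraries held at most 3 counts in 16 genes. For these, folds rest on very few CS counts, and the 95% intervals given are exact and cover counting error only.

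Os07g0218200 was the gene with no CS count. It held 86 and 58 counts in HDS leaves and 0 and 0 in CS leaves, which makes it at least 23.0-fold higher in HDS leaves if each CS library is allowed 3 counts. Os07g0529000 held 453 and 122 counts in HDS leaves, against 1 and 0 in CS leaves. Its pooled fold was 554, with an interval from 99.0 to 21915. Both genes lie on chromosome 7, far apart in the table.

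Os12g0230600 was weak in both treatments, with 50 and 45 counts in HDS leaves and 2 and 1 in CS leaves. Os04g0344100 held 141 and 152 counts in HDS leaves, against 9 and 2 in CS leaves. Os01g0348900 held 123 and 131 in HDS leaves, against 8 and 0 in CS leaves. The HDS replicates of these 3 genes agreed within counting error, and their pooled folds were 30.5, 25.7 and 30.6.

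Genes of the set lay close together more often than eligible genes lay close to the set. Another gene of the set within 10 rows on the same chromosome was found for 23 of the 105 genes (21.9%), and a gene of the set lay within 10 rows of 5.23% of the eligible genes. In the next row alone there was another gene of the set for 9 genes (8.57%, against 0.613% of eligible genes), within 5 rows for 21 (against 2.84%) and within 20 rows for 26 (24.8%, against 10.2%). Widening the window from 5 to 20 rows thus added 5 genes, so that most of the closeness was within a few rows. In the larger set chosen without CS replicate 1 the share within 10 rows was 26.1%, against 8.55% of eligible genes near that set, and without CS replicate 2 it was 26.0%, against 17.1%. Both larger sets hold the 105 genes, so these shares are not separate from the 21.9%. By the mirrored rule, with CS at least 3 times HDS, 45 of 14744 genes were kept, and 2 of them (4.44%) lay within 10 rows of each other, against 2.34% of its eligible genes near that set. The difference between these shares was not tested. The mirrored set was counted on library totals only. By the quasi-likelihood test, after TMM scaling, 55 genes were higher and 100 lower in HDS plants, so the sizes of the sets give no direction over all genes.

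**Figure D2:**
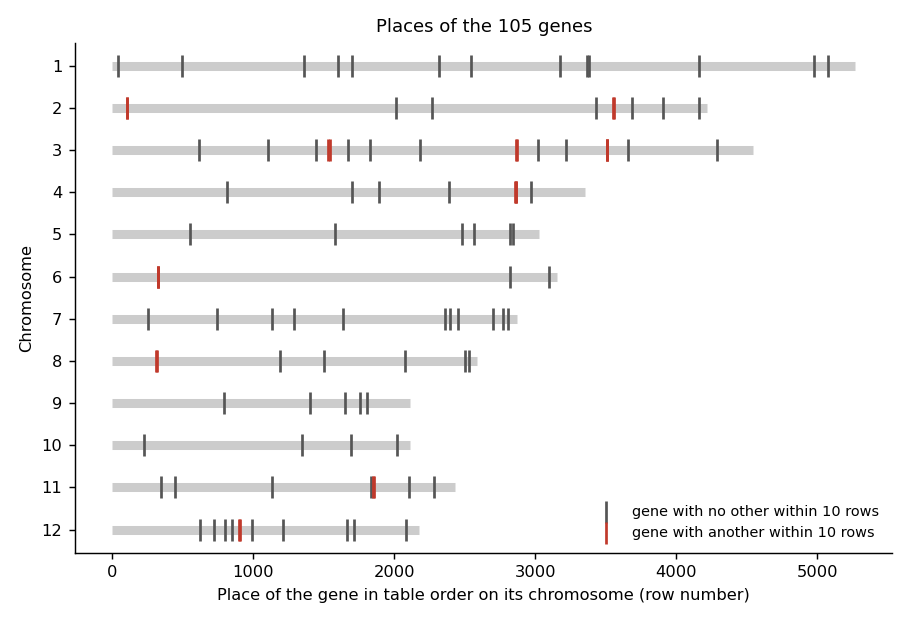
Places of the 105 genes along the 12 chromosomes, as the row number of each gene in table order on its chromosome (grey bars, all listed genes). Dark ticks are genes with no other gene of the set within 10 rows, and red ticks are the 23 genes that have one, in 10 groups on 7 chromosomes whose ticks nearly coincide at this scale.

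By chromosome, the set was spread over all 12. It held between 4 genes on chromosome 10 and 17 on chromosome 3. As a share of the eligible genes it was lowest on chromosome 6 (0.398%) and highest on chromosome 12 (1.41%), followed by chromosome 11 (1.06%) and chromosome 7 (0.927%). Chromosomes 11 and 12 held 8 and 11 genes, which are too few for these shares to be read as an order of the chromosomes.

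The 23 genes formed 10 groups, 3 of 3 genes and 7 of 2 genes, and with the 82 single genes the set occupied 92 places. Each group had a single order of the HDS replicates: all genes were higher in HDS replicate 1 in 8 groups, and all were higher in HDS replicate 2 in 2 groups. Thus 16 of 16 pairs of genes within a group had the same order, as against 59.5% of the 5444 pairs from different places. The 16 pairs come from 10 groups, share genes in the groups of 3 and are not separate observations. In 6 of the 23 genes the order was within counting error. The same share was not computed for neighbouring eligible genes. The log2 ratio of HDS replicate 1 to HDS replicate 2 differed by a median of 0.38 within a group and 0.80 between places.

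On chromosome 2, Os02g0112900 and Os02g0113200 occupied adjoining rows. Os02g0112900 held 402 and 66 counts in HDS replicates 1 and 2, and 2 and 0 in CS replicates 1 and 2. Os02g0113200 held 272 and 57 in HDS leaves, against 1 and 0 in CS leaves. The neighbours were thus nearly silent in CS leaves and HDS replicate 1 was 5.85 and 4.58 times HDS replicate 2, ratios that were the first and the third in size of the set. The nearest listed genes, Os02g0112600 before and Os02g0113300 after, held 0 and 0 counts and 0 and 1 counts in HDS leaves, and 0 counts in both CS libraries.

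Chromosome 3 held a run of 3 adjoining genes. Os03g0734100 held 370 and 124 counts in HDS leaves, against 16 and 7 in CS leaves. Os03g0734200 held 66 and 50 in HDS leaves, against 6 and 10 in CS leaves. Os03g0734300 held 1174 and 312 in HDS leaves, against 93 and 43 in CS leaves. The outer genes were alike in their HDS replicates, with HDS replicate 1 at 2.86 and 3.61 times HDS replicate 2, whereas Os03g0734200 between them differed by 1.27-fold, which is within counting error. The run ended sharply. Os03g0734400, in the next row, held 45 and 43 counts in HDS leaves and 55 and 58 in CS leaves. Os03g0734500, a row further, went the other way, with 15 and 25 counts in HDS leaves and 129 and 167 in CS leaves, a pooled fold of 0.130.

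The group on chromosome 4 had the opposite order of the HDS replicates. Os04g0635000 held 45 and 62 counts in HDS leaves, against 2 and 9 in CS leaves. Os04g0635450 held 210 and 353 in HDS leaves, against 57 and 43 in CS leaves. Os04g0635650 held 23 and 42 in HDS leaves, against 5 and 3 in CS leaves. In all 3 genes HDS replicate 2 was the higher library, by 1.44-, 1.75- and 1.90-fold in CPM, and for Os04g0635000 this was within counting error.

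Genes that missed the rule lay among or beside them, also higher in HDS leaves and highest in HDS replicate 2. Os04g0635100 held 908 and 1592 counts in HDS leaves, against 330 and 166 in CS leaves, a ratio of 2.46. Os04g0635500 held 719 and 1241 in HDS leaves, against 227 and 158 in CS leaves, a ratio of 2.83. Os04g0634900, in the row before the group, held 9 and 19 in HDS leaves, against 1 and 2 in CS leaves, which was under the count limit. The limit of the rule therefore divides a longer stretch of genes that were higher in HDS leaves, and these 3 were picked after their values were seen. The stretch was not unbroken, since Os04g0635201, Os04g0635350 and Os04g0635400 within it held 0 counts in all 4 libraries. On the far side the stretch ended with Os04g0635700, which held 1646 and 1856 counts in HDS leaves and 1691 and 1571 in CS leaves.

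On chromosome 6 the order was again HDS replicate 2 over HDS replicate 1. Os06g0142200 held 93 and 128 counts in HDS leaves, against 10 and 15 in CS leaves. Os06g0142300 held 60 and 90 in HDS leaves, against 6 and 1 in CS leaves. Os06g0142400 held 50 and 75 in HDS leaves, against 0 and 4 in CS leaves. HDS replicate 2 was 1.43-, 1.56- and 1.56-fold higher, so that the 3 genes were alike within their counting error. Os06g0142350, which lies between Os06g0142300 and Os06g0142400, was under the count limit and held 7 and 11 counts in HDS leaves, against 0 and 1 in CS leaves. Os06g0142500, in the row after the group, held 830 and 666 counts in HDS leaves and 730 and 876 in CS leaves.

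**Figure D3:**
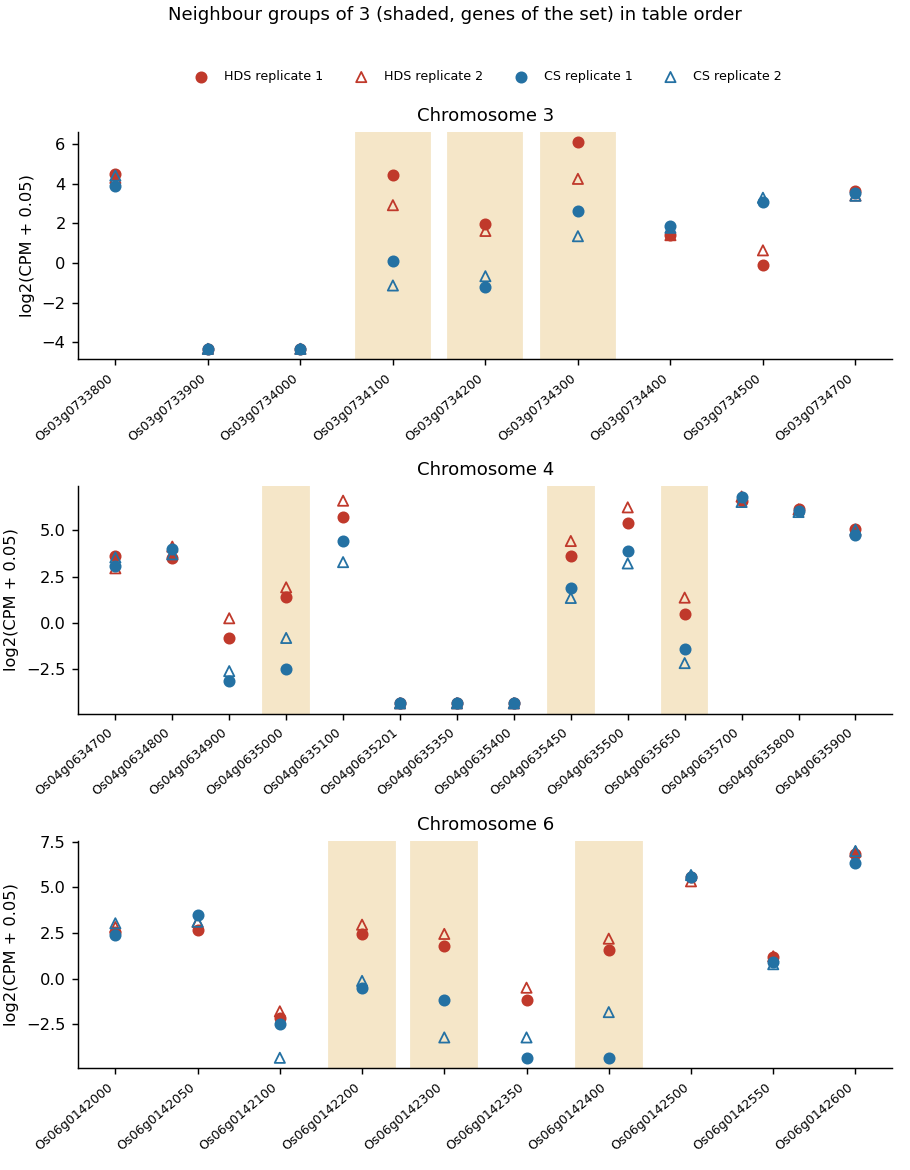
Transcript levels as log2(CPM + 0.05) in the 3 groups of 3 genes on chromosomes 3, 4 and 6, with the rows before and after them in table order: shading marks genes of the set, red HDS and blue CS libraries, filled for replicate 1 and open for replicate 2. The filled red mark lies above the open one in the shaded genes of chromosome 3 and below it in those of chromosomes 4 and 6. Among the unshaded genes Os04g0634900, Os04g0635100, Os04g0635500 and Os06g0142350 also have red above blue, as do Os04g0635800, Os06g0142100 and Os06g0142550. Blue lies above red in Os03g0734400, Os03g0734500 and Os06g0142050.

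Chromosome 11 held the most strongly expressed group. Os11g0592200, 2 rows from Os11g0592000, held 731 and 627 counts in HDS leaves, against 52 and 156 in CS leaves. The gene between them, Os11g0592100, held 989 and 409 in HDS leaves, against 134 and 163 in CS leaves, and missed the rule with a ratio of 2.60. All 3 were higher in HDS replicate 1, by unequal amounts. HDS replicate 1 was 3.15 times HDS replicate 2 for Os11g0592000 and 1.12 times for Os11g0592200, and CS replicate 1 was the higher CS library for Os11g0592000 and the lower one for Os11g0592100 and Os11g0592200.

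On chromosome 12, Os12g0257600 held 256 and 145 counts in HDS leaves, against 7 and 1 in CS leaves. Os12g0258700, 3 rows on, held 191 and 164 in HDS leaves, against 5 and 3 in CS leaves. Both ranked among the 10 largest ratios of the set. Os12g0258200 between them held 749 and 722 counts in HDS leaves and 548 and 633 in CS leaves, and was thus little different.

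The remaining groups had 2 genes each. On chromosome 3, Os03g0288000 held 465 and 206 counts in HDS leaves, against 12 and 0 in CS leaves, and Os03g0286900, 9 rows before it, held 85 and 24 in HDS leaves, against 3 and 0 in CS leaves. On chromosome 2, Os02g0755900 held 726 and 288 counts in HDS leaves, against 24 and 14 in CS leaves, and its partner Os02g0755400 held 84 and 44, against 10 and 2. The pairs Os03g0638200 with Os03g0638400 and Os08g0140300 with Os08g0140500 were weaker, with between 21 and 97 counts in HDS libraries and between 0 and 13 in CS libraries. Over all groups, 22 listed genes lay between the first and last gene of their group without being in the set. Of these, 6 held no count in any library, 16 held counts, and 9 of the 16 had both HDS libraries above both CS libraries, as did 24.1% of all genes with a count in any library. These 9 were not tested.

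Whereas the rule treats the HDS replicates alike, most genes of the set were higher in HDS replicate 1. This was so for 76 of the 105 genes (72.4%), and for 55.0% of the eligible genes. The log2 ratio of HDS replicate 1 to HDS replicate 2 had a median of 0.46, or 1.37-fold, and the eligible genes a median of 0.03. At least 2-fold higher levels in HDS replicate 1 were found in 30 genes (28.6%), and in 1.40% of the eligible genes. At least 2-fold higher levels in HDS replicate 2 were found in 0 of the 105 genes, and in 0.125% of the eligible genes.

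**Figure D4:**
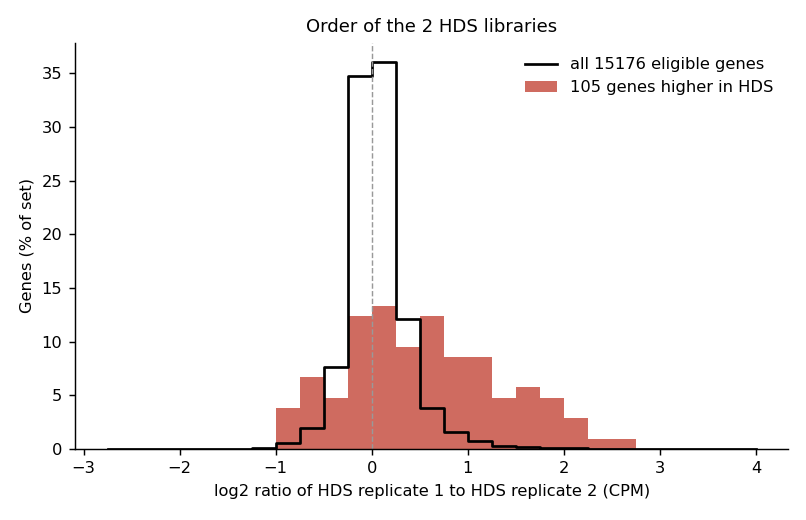
Share of genes (in percent) by the log2 ratio of CPM in HDS replicate 1 to HDS replicate 2, for the 105 genes (red bars) and for the 15176 eligible genes (black line), in steps of 0.25. The eligible genes are centred near 0, while the 105 genes extend to 2.55 on the side of HDS replicate 1 and to -0.93 on the side of HDS replicate 2.

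Counts of this size carry counting error, which was set beside the ratios. HDS replicate 1 was higher beyond the 95% interval of counting error in 53 genes (50.5%), where 18.6% of the eligible genes were. HDS replicate 2 was higher beyond it in 11 genes (10.5%), where 12.8% of the eligible genes were. These shares depend on the counts, which were lower in the set, and are given by count below. In the other 41 genes the order was within counting error. As 2 libraries stand for a treatment, these intervals say nothing of the spread between plants.

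Since genes of the set had lower counts than eligible genes, the order was also compared within bands of the mean HDS count. Between 20 and 50 counts, 56.0% of 25 genes were higher in HDS replicate 1, against 54.7% of eligible genes. Between 50 and 100 counts the shares were 75.8% of 33 genes and 59.9%, and between 100 and 300 counts they were 75.9% of 29 genes and 57.1%. At 300 counts or more they were 83.3% of 18 genes and 52.8%. The distance from the eligible genes was thus smallest where counting error is greatest.

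The share was also taken by the size of the difference between HDS and CS leaves, the value that the rule used. Genes with differences of unlike size were not matched for their counts. Among eligible genes whose smaller HDS level was 1 to 1.5 times the larger CS level, 58.0% of 3915 were higher in HDS replicate 1. The share was 65.5% of 200 genes at 1.5 to 2 times and 69.4% of 98 genes at 2 to 3 times, that is, below the limit of the rule. Within the set it was 71.4%, 68.0%, 73.9% and 77.3% at 3 to 4, 4 to 6, 6 to 10 and at least 10 times, and the median log2 ratio of the HDS replicates was 0.40, 0.46, 0.69 and 0.74. Neighbouring shares within the set rest on 22 to 35 genes each and do not give an order among themselves.

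**Figure D5:**
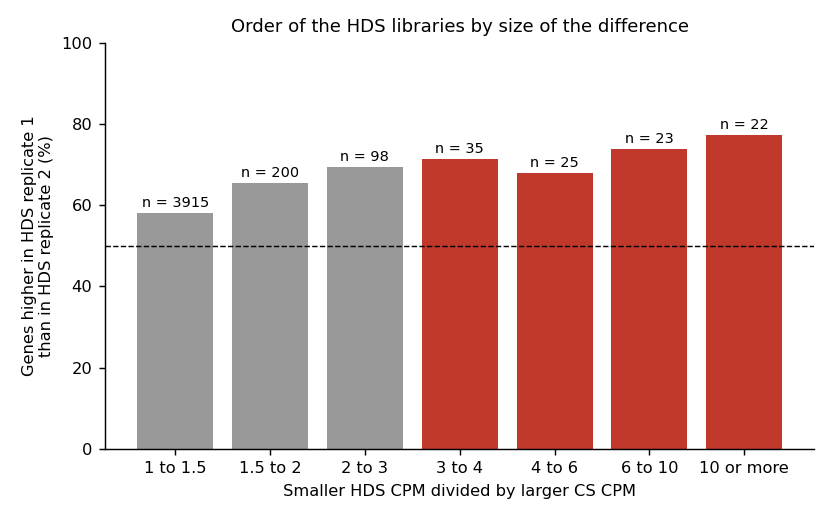
Share of genes (in percent) with a higher CPM in HDS replicate 1 than in HDS replicate 2, by the ratio of the smaller HDS CPM to the larger CS CPM, among eligible genes with all HDS levels above all CS levels. Red bars are the 105 genes and grey bars genes below the limit of 3, with the number of genes above each bar and a dashed line at 50%, and the share is 58.0% in the first bar and 77.3% in the last.

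Genes that were nearly silent in CS leaves had less even HDS replicates than the others. Of the 16 genes with at most 3 counts in both CS libraries, 14 (87.5%) had HDS replicate 1 on top, and their median log2 ratio was 1.05. Of the other 89 genes, 62 (69.7%) were. The order was hardly altered when a single gene was taken from each place, with 67 of 92 (72.8%) higher in HDS replicate 1, and it was 17 of 23 in groups and 59 of 82 among single genes.

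Along the chromosomes, the order was not the same throughout. All 5 genes on chromosome 9 were higher in HDS replicate 1 (median log2 ratio 1.01), as were 13 of 17 on chromosome 3 and 9 of 11 on chromosome 12. On chromosome 4 only 3 of 8 genes were higher in HDS replicate 1 and the median was -0.14. On chromosome 6 these were 2 of 5 and -0.52, and 3 genes on each of these chromosomes belong to the groups described above. The genes per chromosome are too few for these counts to be read as a difference between chromosomes.

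The most uneven single genes outside groups were Os04g0486950 and Os06g0694200. Os04g0486950 held 303 and 60 counts in HDS replicates 1 and 2, against 10 and 5 in CS leaves. Os06g0694200 held 130 and 28 in HDS leaves, against 6 and 9 in CS leaves. HDS replicate 1 was 4.85 and 4.46 times HDS replicate 2, with counting intervals from 3.66 to 6.51 and from 2.94 to 6.97. Even the lower HDS library was above both CS libraries in these genes, as the rule required.

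In the other direction the ratios were smaller. Os02g0802500 held 397 and 661 counts in HDS leaves, against 36 and 11 in CS leaves, with HDS replicate 2 at 1.73 times HDS replicate 1. Os01g0580500 held 40 and 71 in HDS leaves, against 3 and 4 in CS leaves, a ratio of 1.85. Os12g0210500 held 26 and 41 in HDS leaves, against 2 and 5 in CS leaves, and its 1.64-fold ratio was within counting error.

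The CS libraries also had an order in these genes. CS replicate 1 was higher in 72 of the 105 genes (68.6%), CS replicate 2 in 32, and 1 gene was equal at 0, while CS replicate 1 was higher in 41.3% of the eligible genes. Among 57 genes with at least 5 counts in both CS libraries CS replicate 1 was higher in 39 (68.4%). CS replicate 1 was higher in 55 of the 76 genes with HDS replicate 1 higher (72.4%), and in 17 of the 29 with HDS replicate 2 higher (58.6%). Among eligible genes these shares were 36.9% and 46.6%. In the mirrored set of 45 genes CS replicate 1 was higher in 24 (53.3%), where 42.1% of its eligible genes were, and a median log2 ratio of 0.05. In the labels the replicate numbers do not mark a shared batch or plant, and whether anything sets apart replicate 1 of either treatment was not tested.

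The order of the HDS replicates was recomputed without each CS library in the rule. Without CS replicate 1, 126 of 180 genes (70.0%) were higher in HDS replicate 1, and the median log2 ratio was 0.48. Without CS replicate 2, 216 of 354 genes (61.0%) were, and the median was 0.09. Both sets hold the 105 genes, 76 of them higher in HDS replicate 1, so these shares are not separate from the 72.4% above. The genes added by leaving out a CS library were not counted alone. With the 105 genes included, the share was nearly as large without CS replicate 1. It was nearer to the 55.0% of eligible genes when CS replicate 1 alone stood for the controls.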

How the data were processed

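Leaf RNA of 2 HDS and 2 CS replicates was sequenced as 150 bp paired ends. The authors estimated expected counts per gene with RSEM and deposited these expected counts in a table of 37858 genes, without normalization. The submitters' processing notes list FastQC 0.11.7, Trimmomatic, Bowtie2, RSEM, edgeR 3.26.3 and the build IRGSP-1.0, with no settings. The labels name a TruSeq Stranded mRNA library kit and the paper a NEBNext directional kit. Whether strand was used in counting is not given in the sources used here.

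Counts were divided by library totals (15444235 to 17298384) for CPM. Intervals are exact Clopper-Pearson intervals at 95% and cover counting error only. Python 3.11.15, pandas 2.3.3 and scipy 1.17.1 were used. In R 4.3.3, edgeR 4.0.16 was applied to rounded counts, with exactTest on all 29698 genes that had any count and the quasi-likelihood test on the 22184 genes kept by filterByExpr, both after TMM scaling, and DESeq2 1.42.0 as an alternative. The rule for the set and the neighbour count were tested on simulated data. Log2 CPM used a prior count of 2.

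Named were the 10 genes with the highest mean HDS CPM, the 10 with the largest ratios (the larger CS value set to at least 3 counts), all genes of the 3 largest neighbour groups, the 5 with the highest and the 5 with the lowest ratio of HDS replicates, and 3 on each side of the limit, 34 genes of the set in all. Partners in the other groups and genes between or beside groups were added once their values had been seen. The genes, lists and rules were chosen with earlier results of these data known. Replicates are separate samples by their labels, and p-values set a difference against a spread estimated from these libraries only. Planned gene classes and tissue markers needed product names and were not analysed here, nor were sequences.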

Additional observations from a re-analysis of the deposited data

How the results depend on the processing

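The 105 genes numbered 203 at a ratio of at least 2, 64 with at least 50 counts, and between 133 and 354 with 1 library left out of the rule. Genes with another of the set within 10 rows then numbered 50, 12 and, without a CS library, 47 to 92, against 23. Genes higher in HDS replicate 1 numbered 144, 49 and 126 to 216, against 76, with each set chosen anew. Leaving out a CS library for these counts was chosen after seeing the data. A ratio of at least 4, 10 counts, no condition on whole counts, and TMM or DESeq2 factors kept all of these counts within 1.5 times. Over all genes, 1242 met the study's criteria as higher in HDS plants, and 600 (without HDS replicate 1) to 2802 (without CS replicate 2) with 1 library left out, where the lone library is assumed to vary like the other treatment. By the quasi-likelihood test 55 were higher, 215 without the filter, 276 by DESeq2 and 24 (without HDS replicate 1) to 1307 (without CS replicate 2) with 1 library left out.

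With a replicate block the quasi-likelihood test called 295 genes higher in HDS plants. Across genes, deviations of same-numbered libraries from their treatment means correlated at r = 0.0039. With 2 libraries per treatment this value cannot decide whether the replicate numbers pair the libraries. The log2 differences of the 34 named genes were between 1.58 and 8.03 in 238 values under alternatives, and their direction was fixed by the rule that chose the genes. Genes with few CS counts are limited by depth, and their folds depend on the prior count.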

Other observations

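A further 45 genes met every condition of the rule except that of whole counts, so that 150 genes met it in all. Whole counts were held by 77.3% of the 19632 genes with at least 20 counts in both HDS libraries, and by 70.0% of those that met the rest of the rule. Of the 45 genes, 34 (75.6%) were higher in HDS replicate 1, and their median log2 ratio was 0.32. Only 6 of them (13.3%) lay within 10 rows of another of the 150 genes, and 2 lay within 10 rows of a gene of the set. Since their reads were divided between genes by estimation, their levels are less certain and they are not named here.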
